A study of Mus musculus with 6 samples.

Results

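The genes described here encode the proteins of NF-kappaB signaling, the Toll-like receptors and their adaptors, the NOD receptors, the core of the inflammasome and the TNF receptors, measured in bone marrow neutrophils. They were taken from the deposited expression table as the rows whose gene symbol is one of 52 listed symbols, and all 52 were found, each in 1 of 52636 rows. The table holds 3 libraries with the label WT and 3 with the label LRP5-null, all from C57BL/6N mice aged 10 weeks. The mice labelled LRP5-null carried LRP5f/f alleles and Lyz2Cre+, a Cre recombinase inserted in the lysozyme gene Lyz2, which is active in the myeloid lineage and so not only in neutrophils. The labels give the other mice as WT, with no floxed allele or Cre named. LRP5 is a co-receptor of the Wnt pathway. The authors report that its loss hardly changed the rise of beta-catenin after Wnt3a in neutrophils. They describe LRP5 as a transporter of polyunsaturated fatty acids. Whether loss of LRP5 from myeloid cells alters the neutrophil transcriptome is the question the comparison addresses. The labels do not say whether a library came from 1 mouse or from pooled mice, so the p-values measure the spread between these libraries.

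NF-kappaB is a dimer of Rel family proteins that is held in the cytoplasm by IkappaB proteins. Toll-like receptors, the IL-1 receptor and TNF receptors activate it through adaptors and kinases of the IRAK, TRAF and TAK1 families, which lead to the IkappaB kinase (IKK) complex. IKK marks IkappaB for degradation and the freed dimer enters the nucleus, where it switches on cytokine genes and also genes of its own inhibitors, among them those of IkappaB-alpha and A20. The kappaB-Ras proteins are small Ras-like GTPases that bind IkappaB and slow its degradation. Inflammasomes are cytosolic assemblies that activate caspase-1, which processes IL-1beta and cleaves gasdermin D. Neutrophils carry most of these receptors and use them to sense bacteria.

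The deposited expression values are TPM, for which gene length is divided out and each library is scaled to the same total, so levels can be set side by side between genes. Differences are given as LRP5-null minus WT in log2(TPM + 1), a scale on which the change of weakly expressed genes is understated. Genes whose mean over the 6 libraries reached 1 TPM were tested with limma, and a gene was called at a Benjamini-Hochberg adjusted p under 0.05, adjusted over all 9775 genes tested. Groups were said not to overlap where each library of one label lay above each library of the other. Values in a series follow the order of replicates 1, 2 and 3, and the main fit did not use the numbers as pairs.

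The libraries held between 249841492 and 340580330 reads. Lrp5 itself stood at 1.12, 1.31 and 1.42 TPM in the libraries labelled WT and at 1.68, 1.77 and 2.07 TPM in those labelled LRP5-null (two-sided exact permutation p = 0.1, the lowest that 3 libraries against 3 can give). The label LRP5-null thus did not go with a lower value for the whole Lrp5 gene. Such a value cannot show whether the floxed part of the gene was removed, so it does not decide whether the knockout took place. All directions given here rest on the labels. Lyz2, the site of the Cre insertion, was lower under the LRP5-null label, at 14027, 13989 and 13360 TPM against 26791, 26300 and 24797 TPM (difference -0.91, limma adjusted p = 0.00351). WT replicate 3 stood apart from the other libraries labelled WT. Its share of ribosomal RNA reads was 3.30%, while WT replicates 1 and 2 had 1.20% and 1.30% and the LRP5-null label ranged from 2.69% to 2.98%. Reads in introns made up 8.46% ± 0.62 (SD, n = 3) under the WT label and 10.9% ± 0.31 (SD, n = 3) under the LRP5-null label. The defining markers of neutrophils were high in every library. They summed to 337784 to 386761 TPM under the WT label and 368036 to 391577 TPM under the LRP5-null label. Most of that sum came from S100a8 and S100a9. Without overlap, S100a9 was higher (difference 0.18, limma adjusted p = 0.114) and Cxcr2 lower (-0.15, limma adjusted p = 0.217) under the LRP5-null label. Ly6g, Itgam, S100a8, Csf3r, Retnlg and Ltf overlapped between labels.

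One of the 52 genes, Nkiras2, was called, and it was lower in the libraries labelled LRP5-null. It encodes kappaB-Ras2. For the other genes the limma test found no difference at the same threshold, at a background of 0.532% of all genes called and 0.266% called in the lower direction. Of the 52 genes 50 passed the filter of 1 TPM. The groups did not overlap in 16 of these, or 32.0%, where 29.7% of all genes tested had groups without overlap. Of the 16, 6 stood higher under the LRP5-null label, or 12% of the 50 against 17.4% of all genes, and 10 were lower, or 20% of the 50 against 12.3%. The median difference over the 50 genes was 0.02, against 0.04 over all genes tested, and 56.0% of the 50 were higher, against 58.8% of all genes. At an unadjusted p under 0.05 there were 13 of the 50 genes, or 26%, where the share of all genes was 23.5%. By direction, 5 were higher, or 10% against 14.4% of all genes, and 8 were lower, or 16% against 9.12%. The shares over both directions lie close to those of all genes, while among the 50 the lower side held more genes than the higher side and among all genes it held fewer. This difference in direction was not tested.

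The DNA just ahead of a start site is shown for Nkiras2, the gene called, and for 4 genes whose groups did not overlap. Nfkb2 and Nfkbia were on the higher side under the LRP5-null label and Rel and Casp4 on the lower side, and these 4 were picked after their values were seen because their windows hold a match to the NF-kappaB consensus, the decamer to which the dimer binds. The start sites are those of RefSeq, whose promoter table is of build GRCm38.p6. Each window was found again by an exact match in NCBIM37 (mm9), whose coordinates are given, and its printed part is cut where an annotated exon begins. Sequences are written 5′ to 3′ on the strand of the gene, and capitals mark a match on either strand, with overlapping matches run together.
Nkiras2, chr11:100484019-100484189, plus strand: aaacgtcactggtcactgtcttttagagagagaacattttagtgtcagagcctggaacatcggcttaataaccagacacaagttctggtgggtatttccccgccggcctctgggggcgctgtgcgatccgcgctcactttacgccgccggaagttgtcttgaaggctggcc
Nfkb2, chr19:46378977-46379226, plus strand: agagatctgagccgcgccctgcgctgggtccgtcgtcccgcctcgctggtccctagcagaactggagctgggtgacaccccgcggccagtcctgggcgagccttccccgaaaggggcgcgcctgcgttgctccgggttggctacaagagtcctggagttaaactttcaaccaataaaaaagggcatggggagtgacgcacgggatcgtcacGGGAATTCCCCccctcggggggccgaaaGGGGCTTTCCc
Nfkbia, chr12:56593635-56593884, minus strand: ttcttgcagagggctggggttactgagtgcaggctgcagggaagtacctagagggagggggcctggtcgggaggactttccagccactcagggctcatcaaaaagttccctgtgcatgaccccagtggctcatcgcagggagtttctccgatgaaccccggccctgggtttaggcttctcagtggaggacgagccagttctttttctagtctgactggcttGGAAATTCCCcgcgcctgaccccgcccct
Rel, chr11:23670971-23671219, minus strand: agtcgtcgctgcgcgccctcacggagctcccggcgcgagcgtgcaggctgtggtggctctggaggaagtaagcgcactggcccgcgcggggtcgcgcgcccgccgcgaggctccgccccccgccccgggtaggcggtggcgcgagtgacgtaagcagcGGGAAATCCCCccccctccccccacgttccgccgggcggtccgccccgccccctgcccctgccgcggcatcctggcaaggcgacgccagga
Casp4, chr9:5308599-5308827, plus strand: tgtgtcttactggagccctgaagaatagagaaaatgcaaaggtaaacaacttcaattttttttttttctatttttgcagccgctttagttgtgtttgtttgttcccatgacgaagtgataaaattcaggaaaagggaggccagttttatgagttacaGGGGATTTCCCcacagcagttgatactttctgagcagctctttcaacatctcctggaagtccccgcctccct
The window of Nkiras2 holds no match and lies inside the annotated span of the gene, ahead of a downstream start. That of Nfkb2 holds a run of overlapping matches and, close to the start, a further match. Nfkbia, a well known target of NF-kappaB, has 1 match close to its start, while Rel and Casp4 each have 1 run of overlapping matches farther upstream. In windows of 250 bases before to 50 bases after each start, 12 of the 40 genes found in the table held a match (30%), as did 1388 of 27025 genes in the whole table (5.14%). A match was present for 3 of 5 genes without overlap on the higher side (Nfkb2, Nfkbia and Tnfaip3), for 3 of 9 on the lower side (Rel, Map3k7 and Casp4) and for 6 of 24 whose groups overlapped (Nfkbid, Nfkbie, Tnip1, Traf3, Tlr2 and Nlrp3). The matches are a description of sequence, and binding was not measured.

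The levels of the 52 genes spanned more than the differences between labels. A mean of 100 TPM or more was reached by 7 genes, 32 lay from 10 to 100 TPM, 11 from 1 to 10 TPM and 2 below 1 TPM. Tnfrsf1a, the type 1 TNF receptor, had the highest mean at 352 TPM. It was followed by the lipopeptide receptor Tlr2 at 194 TPM, by the nuclear and cytoplasmic IkappaB genes Nfkbid at 155 TPM and Nfkbia at 151 TPM, and by Tlr13, a receptor of bacterial ribosomal RNA, at 150.0 TPM. Myd88, the adaptor of most Toll-like receptors, stood at 120.2 TPM and Nfkbiz, another nuclear IkappaB, at 102 TPM. Neighbours in this order, such as Nfkbid, Nfkbia and Tlr13, did not differ beyond the spread over libraries. The summed level of the 52 genes was 2217, 2242 and 2379 TPM in the libraries labelled WT and 2283, 2324 and 2342 TPM in those labelled LRP5-null, and the groups overlapped.

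**Figure D1:**
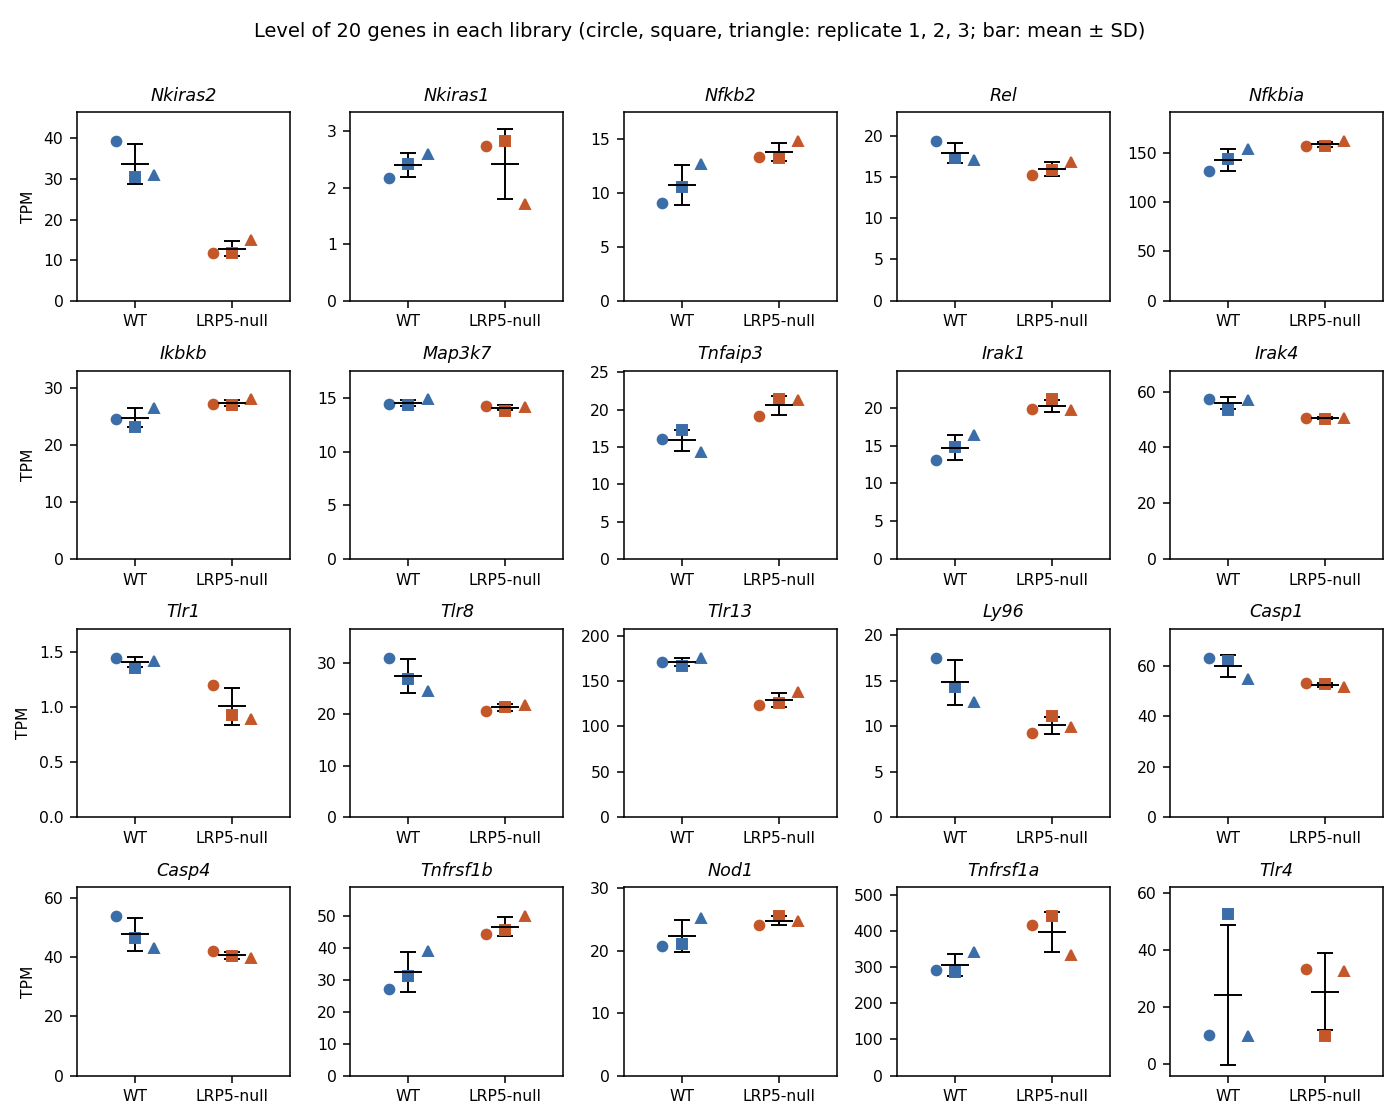
Level in TPM (vertical axes, scaled for each gene) of 20 genes in the 3 libraries labelled WT (blue) and the 3 labelled LRP5-null (orange), with circles, squares and triangles for replicates 1, 2 and 3 and bars for the mean ± SD. Nkiras2 shows the widest gap between the labels for its level, from 30.5 TPM down to 15.0 TPM, and Tlr4 shows both high and low libraries under each label.

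Of the kappaB-Ras pair, Nkiras2 was the gene that fell. It stood at 39.3, 30.5 and 31.1 TPM in the libraries labelled WT and at 11.8, 11.7 and 15.0 TPM in those labelled LRP5-null. All 3 libraries labelled LRP5-null lay below the lowest labelled WT, and the means were 33.6 ± 4.93 and 12.9 ± 1.85 TPM (SD, n = 3 each), so the level was 38.2% of that under the WT label. The difference was -1.32 (standard error 0.13, 95% confidence interval -1.63 to -1.01, limma adjusted p = 0.0225), the 5th smallest p of all genes tested. In bulk RNA, less transcript per cell and fewer cells that carry it cannot be told apart. Nkiras1, which encodes the paralog kappaB-Ras1, stood at 2.18, 2.42 and 2.60 TPM under the WT label and at 2.73, 2.82 and 1.71 TPM under the LRP5-null label. Its groups overlapped, with LRP5-null replicate 3 the lowest of all and the other libraries labelled LRP5-null the highest. The difference of Nkiras1 was -0.0047 (95% confidence interval -0.34 to 0.33, limma adjusted p = 0.988), an interval that does not hold the difference seen in Nkiras2.

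Nkiras2 lies on chromosome 11 from 100480558 to 100488921 on the plus strand of NCBIM37, and part of its span is shared with Dnajc7 and Zfp385c on the other strand. Whether the quantification kept the strands apart is not given in the sources used here. Dnajc7, a heat shock co-chaperone gene, stood at 47.2, 42.8 and 47.8 TPM under the WT label and at 48.9, 45.2 and 47.9 TPM under the LRP5-null label (difference 0.04, limma adjusted p = 0.750), and Zfp385c was listed at 0 in every library. Nkiras1 likewise shares its span with Rpl15 and Ube2e1 on the other strand. The call on Nkiras2 was lost without WT replicate 2 (limma adjusted p = 0.0623), without LRP5-null replicate 1 (limma adjusted p = 0.133) or without LRP5-null replicate 3 (limma adjusted p = 0.0648), and with the ribosomal RNA share of reads as a covariate (difference -1.26, limma adjusted p = 0.0740). Over all 18 alternatives the difference stayed between -1.43 and -1.21, and the gene was called in 11.

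**Figure D2:**
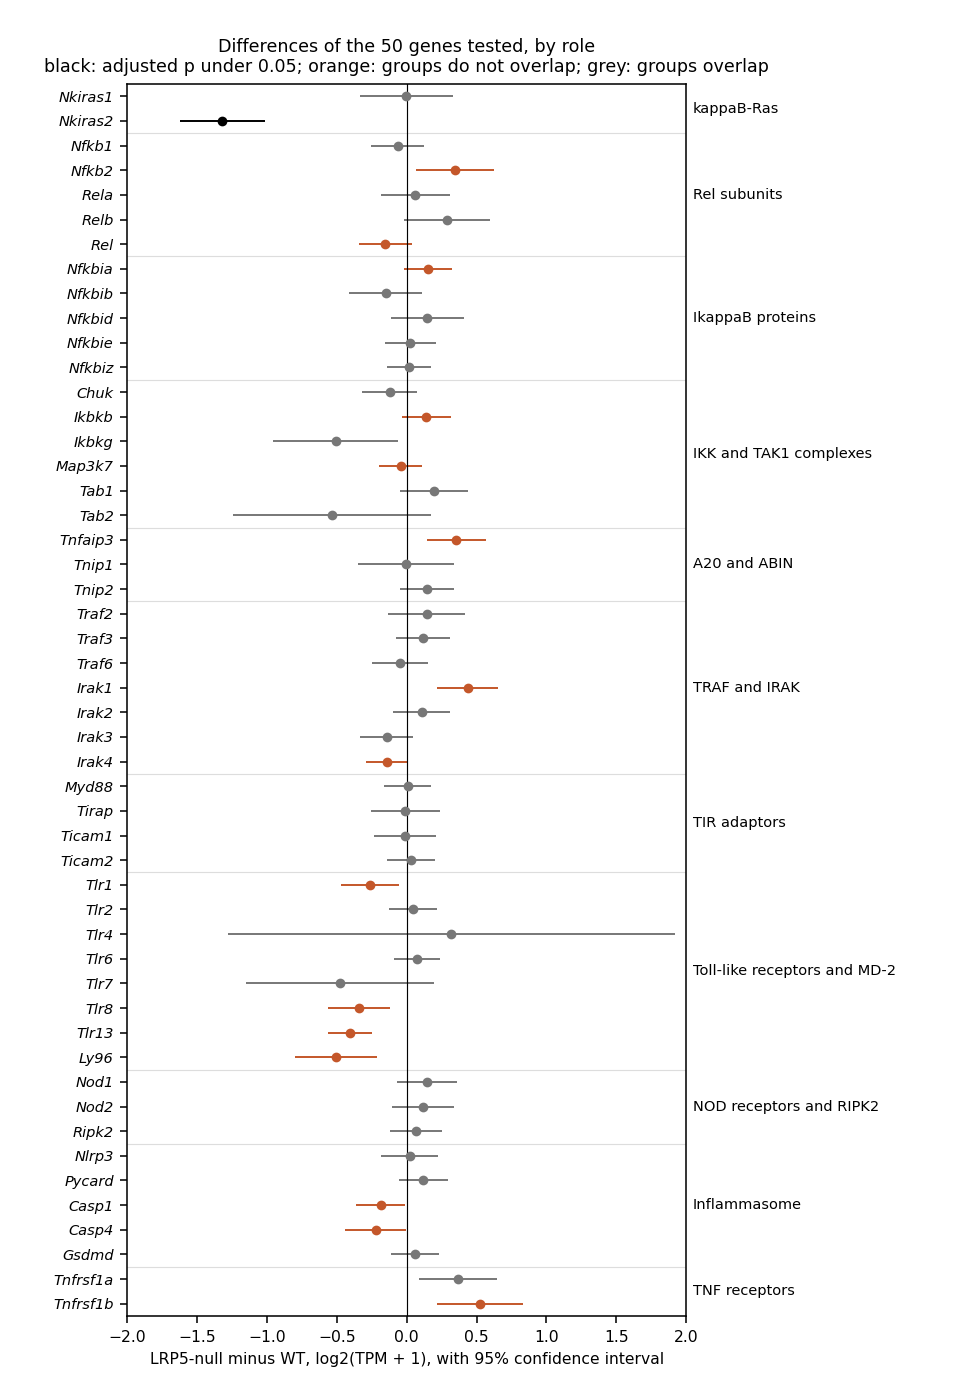
Difference LRP5-null minus WT in log2(TPM + 1) (horizontal axis) with its 95% confidence interval for the 50 genes tested, grouped by role from top to bottom. Black marks an adjusted p under 0.05 (Nkiras2, at -1.32), orange marks genes whose groups did not overlap and grey those whose groups did. The widest interval is that of Tlr4.

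None of the 5 Rel subunit genes was called, and the groups did not overlap for Nfkb2 and Rel. Nfkb2, whose product p100 is the precursor of p52 in the noncanonical branch, stood at 9.05, 10.5 and 12.7 TPM under the WT label and at 13.3, 13.3 and 14.8 TPM under the LRP5-null label. The libraries labelled LRP5-null all lay above the WT label, though WT replicate 3 came close to them (difference 0.34, standard error 0.12, limma adjusted p = 0.160). Relb, the partner of p52, gave 5.51, 7.37 and 7.98 TPM against 7.98, 8.45 and 9.50 TPM, where the highest library labelled WT just overlapped the lowest labelled LRP5-null (difference 0.29, limma adjusted p = 0.235). Rel, which encodes c-Rel, stood on the other side at 19.3, 17.4 and 17.0 TPM against 15.2, 15.9 and 16.8 TPM. Its groups were separated by a gap smaller than the spread within either label (difference -0.15, standard error 0.081, limma adjusted p = 0.290). Rela (difference 0.06) and Nfkb1 (difference -0.06), which encode p65 and the p105 precursor of p50, overlapped between labels.

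The IkappaB genes showed small differences. Nfkbia stood at 131, 144 and 154 TPM under the WT label and at 157, 157 and 162 TPM under the LRP5-null label. The libraries labelled LRP5-null were close to each other and just above WT replicate 3 (difference 0.15, limma adjusted p = 0.253). Nfkbid, Nfkbie, Nfkbiz and Nfkbib overlapped between labels, with differences of 0.15, 0.03, 0.02 and -0.15.

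Of the 6 genes of the IKK and TAK1 complexes, 0 were called by limma. An unadjusted p under 0.05 was found for 1, Ikbkg (16.7%, against 23.5% of all genes). Ikbkg, the regulatory subunit NEMO, stood at 15.3, 9.94 and 16.2 TPM under the WT label and at 8.81, 7.91 and 11.2 TPM under the LRP5-null label. WT replicate 2 lay below LRP5-null replicate 3, so the groups overlapped (difference -0.51, limma adjusted p = 0.178). The catalytic subunit Ikbkb gave 24.6, 23.2 and 26.6 TPM against 27.2, 27.1 and 28.0 TPM, without overlap (difference 0.14, limma adjusted p = 0.293), and the other catalytic subunit, Chuk, overlapped (difference -0.12). Map3k7, which encodes TAK1, stood at 14.5, 14.4 and 14.9 TPM against 14.3, 13.8 and 14.2 TPM. Here the groups did not overlap although the difference was only -0.04 (limma adjusted p = 0.731). Tab2, a TAK1 binding protein, was among the most variable of the genes at 101, 85.6 and 50.6 TPM against 41.6, 44.1 and 77.2 TPM. WT replicate 3 and LRP5-null replicate 3 lay on the side of the other label, and the difference of -0.53 was not past the threshold (limma adjusted p = 0.325). Tab1 overlapped, at a difference of 0.19.

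Among the ubiquitin-editing inhibitors, Tnfaip3 had groups that did not overlap. This gene encodes A20, which takes ubiquitin chains off signaling intermediates. It stood at 16.0, 17.2 and 14.4 TPM under the WT label and at 19.1, 21.3 and 21.2 TPM under the LRP5-null label, where every library was higher than any labelled WT (difference 0.36, standard error 0.090, limma adjusted p = 0.104). Unlike in most of the 16 genes, WT replicate 3 was here the library farthest from the LRP5-null label. Tnip1 and Tnip2, which encode the A20 binding proteins ABIN-1 and ABIN-2, overlapped, with differences of -0.0030 and 0.15.

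In the IRAK family the separated genes went in opposite directions. Irak1 stood at 13.1, 14.8 and 16.4 TPM in the libraries labelled WT and at 19.9, 21.1 and 19.8 TPM in those labelled LRP5-null. The gap between labels was larger than the range under either label, and the difference was 0.44 (standard error 0.094, limma adjusted p = 0.0855). Irak4, the kinase upstream of IRAK1 in the receptor complex, stood at 57.2, 53.5 and 56.9 TPM against 50.7, 50.1 and 50.6 TPM. All 3 libraries labelled LRP5-null were lower, at a small difference of -0.14 (limma adjusted p = 0.225). Irak2, Irak3 (IRAK-M, an inhibitory member), Traf2, Traf3 and Traf6 overlapped, with differences from -0.14 to 0.14. The 4 adaptors that carry TIR domains had the smallest differences of all roles. Myd88, Tirap, Ticam1 and Ticam2, which encode MyD88, MAL, TRIF and TRAM, lay between -0.01 and 0.03, and the groups of each overlapped.

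The Toll-like receptor genes together with Ly96 had the lowest median of the larger roles, -0.30 over 8 of 9 genes tested, and 4 of the 8 did not overlap, each on the lower side under the LRP5-null label, where 12.3% of all genes were lower without overlap. With the trends of GC content and transcript length taken out of each library, the median of the 8 was -0.17. Tlr13 stood at 171, 166 and 176 TPM in the libraries labelled WT and at 124, 126 and 138 TPM in those labelled LRP5-null. Its level was 75.3% of that under the WT label and its libraries were tightly grouped (difference -0.41, standard error 0.068, limma adjusted p = 0.0595). Ly96, which encodes MD-2, the lipopolysaccharide-binding partner of TLR4, stood at 17.5, 14.3 and 12.7 TPM against 9.25, 11.1 and 9.91 TPM (difference -0.51, standard error 0.12, limma adjusted p = 0.102). Tlr8, an endosomal receptor of RNA breakdown products, stood at 31.0, 26.8 and 24.4 TPM against 20.7, 21.5 and 21.9 TPM (difference -0.34, standard error 0.096, limma adjusted p = 0.124). Both genes had WT replicate 3 as the library labelled WT that lay nearest to the LRP5-null label. Tlr1, a partner of TLR2 in sensing lipopeptides, was near the filter at 1.45, 1.36 and 1.42 TPM against 1.20, 0.931 and 0.895 TPM (difference -0.26, standard error 0.090, limma adjusted p = 0.155). None of the 4 was called.

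The other Toll-like receptor genes overlapped between labels. Tlr4, the lipopolysaccharide receptor, stood at 10.3, 52.6 and 9.98 TPM under the WT label and at 33.6, 9.99 and 32.8 TPM under the LRP5-null label. Libraries near 10 TPM and libraries above 30 TPM occurred under each label, and the difference of 0.32 had a standard error of 0.69 (limma adjusted p = 0.808). The standard deviation of Tlr4 within labels was 1.14 on the log2 scale, against a median of 0.12 over all genes tested, and 0.184% of genes had a larger one. Ly96, whose product forms a complex with TLR4, did not share this pattern. Tlr7, a receptor of single-stranded RNA, stood at 4.46, 3.34 and 8.39 TPM against 4.40, 3.52 and 2.39 TPM, with WT replicate 3 well above the rest (difference -0.48, limma adjusted p = 0.351). Tlr2 and Tlr6 had differences of 0.04 and 0.07. Tlr9, the receptor of bacterial DNA, was below 1 TPM in every library, from 0.111 to 0.311 TPM, and was not tested.

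The NOD receptor genes and the inflammasome genes showed no call. Nod1, a sensor of cell wall peptides, stood at 20.7, 21.1 and 25.3 TPM under the WT label and at 24.1, 25.6 and 24.7 TPM under the LRP5-null label, and the groups overlapped through WT replicate 3 (difference 0.15, limma adjusted p = 0.362). Nod2 and the kinase Ripk2 had differences of 0.12 and 0.07. Among the inflammasome genes tested, the caspase genes were those whose groups did not overlap. Casp1 stood at 63.1, 61.7 and 54.7 TPM against 52.9, 52.7 and 51.5 TPM (difference -0.19, standard error 0.076, limma adjusted p = 0.196). Casp4, which encodes caspase-11, the intracellular sensor of lipopolysaccharide, stood at 54.0, 46.5 and 43.0 TPM against 42.1, 40.3 and 39.8 TPM (difference -0.22, standard error 0.093, limma adjusted p = 0.208). In both genes WT replicate 3 lay near the libraries labelled LRP5-null, which were close to each other. Nlrp3, the sensor itself, the adaptor gene Pycard and Gsdmd, the gene of the pore-forming gasdermin D, overlapped, with differences of 0.02, 0.12 and 0.06. Nlrc4, the flagellin inflammasome gene, stood at 0.327, 0.308 and 0.369 TPM against 0.459, 0.412 and 0.418 TPM. It was higher without overlap under the LRP5-null label, but lay under the filter and was not tested.

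The TNF receptor genes stood higher under the LRP5-null label without being called. Tnfrsf1b, the type 2 receptor, stood at 26.9, 31.1 and 39.0 TPM in the libraries labelled WT and at 44.3, 45.5 and 49.8 TPM in those labelled LRP5-null. The groups did not overlap, and the difference of 0.53 was the largest in the higher direction among the 50 genes (standard error 0.13, limma adjusted p = 0.104). Tnfrsf1a stood at 292, 286 and 341 TPM against 417, 442 and 335 TPM, where LRP5-null replicate 3 fell within the range of the WT label (difference 0.37, standard error 0.12, limma adjusted p = 0.147). Over all roles, 34 of the 50 genes had groups that overlapped, with differences from -0.53 to 0.37, and for 16 of these the difference was under 0.1 in size.

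**Figure D3:**
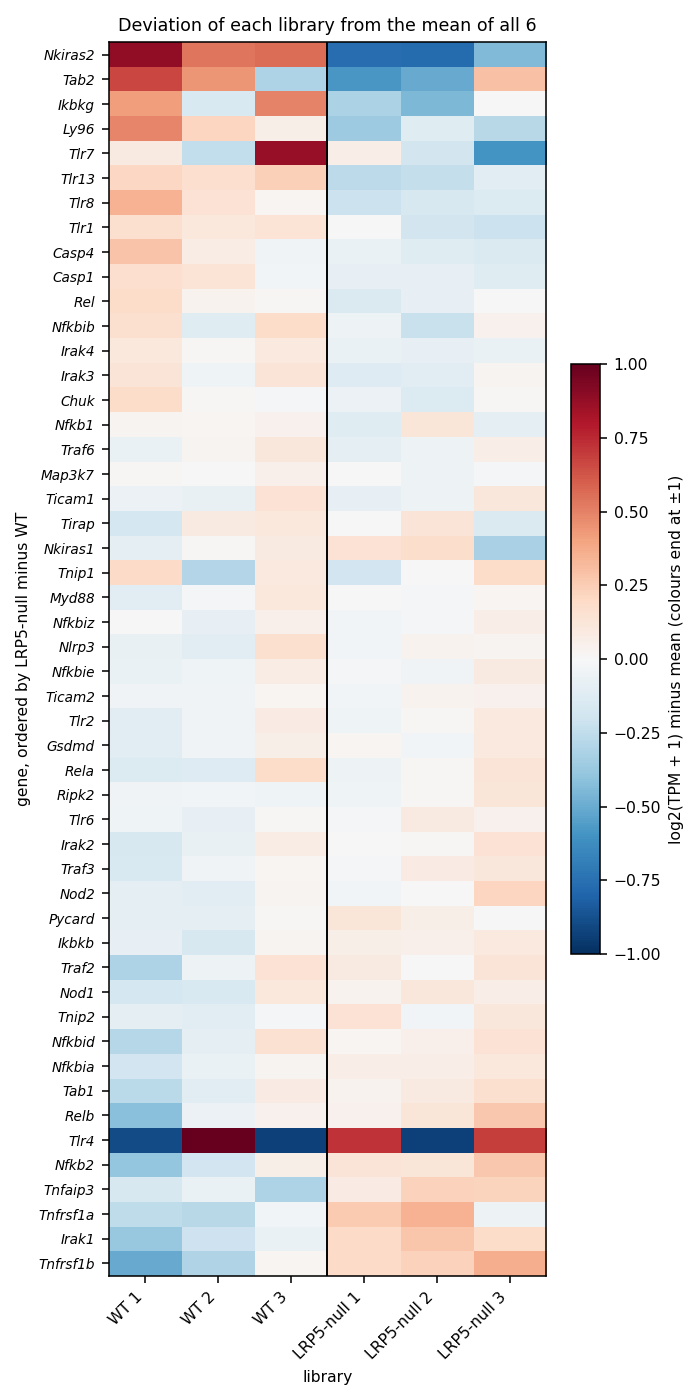
Deviation of each of the 6 libraries (columns) from the mean of all 6 in log2(TPM + 1) (colour, red above and blue below, ending at 1 in either direction) for the 50 genes tested, ordered by their difference LRP5-null minus WT. Nkiras2 at the top is red in all libraries labelled WT and blue in all labelled LRP5-null, while Tlr4 is mixed under each label and WT replicate 3 often has the shade of the libraries labelled LRP5-null.

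Of the 16 genes without overlap, WT replicate 3 was the library labelled WT nearest to the LRP5-null mean in 10, WT replicate 2 in 6 and WT replicate 1 in 0, and over all genes without overlap WT replicate 3 was nearest in 63.0%. Without WT replicate 3, the labels also differed in ribosomal RNA share, at 1.20% and 1.30% against 2.69% to 2.98%. The part of this was not tested. In that fit 1920 of the 9775 genes tested were called, and 11 of the 50 genes, a similar share. Of the 11, 6 were higher and 5 lower under the LRP5-null label. These were Nkiras2, Tlr13 (difference -0.39, limma adjusted p = 0.0189), Irak1 (0.51, 0.0152), Tnfrsf1b (0.67, 0.0117), Nfkb2 (0.46, 0.0234), Tnfaip3 (0.29, 0.0465), Tlr8 (-0.42, 0.0226), Ly96 (-0.60, 0.0209), Nod1 (0.24, 0.0464), Casp1 (-0.25, 0.0322) and Tnfrsf1a (0.45, 0.0450). Against WT replicate 3 as the only library of its label, the spread comes from the libraries labelled LRP5-null alone and a missed threshold says nothing about stability. There Tlr13 (-0.45) and Nkiras2 (-1.22) kept differences of similar size, while that of Tnfaip3 (0.49) was larger than without WT replicate 3. Those of the other 8 were smaller, at 0.29 for Irak1, 0.25 for Tnfrsf1b, 0.11 for Nfkb2, -0.19 for Tlr8, -0.31 for Ly96, -0.03 for Nod1, -0.06 for Casp1 and 0.21 for Tnfrsf1a. With the ribosomal RNA share of reads as a covariate the differences were -0.44 for Tlr13, 0.43 for Tnfaip3, 0.33 for Irak1, 0.33 for Tnfrsf1b, 0.18 for Nfkb2, -0.24 for Tlr8, -0.38 for Ly96, 0.03 for Nod1, -0.10 for Casp1 and 0.27 for Tnfrsf1a, and 0 of the 50 genes were called by limma (adjusted p = 0.0740 for Nkiras2).

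The differences also followed the GC content of the transcripts. The genes without overlap had a median GC content of 52.9% on the higher side and 43.9% on the lower side. Over the 50 genes the Spearman correlation of the difference with GC content was 0.49, as it was over all genes tested that have a GC value. Genes share libraries and are not independent replicates, so the correlation is a description. The deviation of single libraries from the mean of all 6 followed GC content as well, with a Spearman correlation over all genes of -0.61 in WT replicate 1, -0.43 in WT replicate 2 and 0.37 in WT replicate 3, while the LRP5-null label ranged from 0.33 to 0.44. After each library had been freed of its trends with GC content and with transcript length, the correlation over the 50 genes was 0.10. Of the 50, 4 were then called, where 431 of the 8769 genes with a GC value were called. Nkiras2 was then at -1.42 (limma adjusted p = 0.0162), Tlr13 at -0.31 (limma adjusted p = 0.0394), Irak1 at 0.36 (limma adjusted p = 0.0346) and Tnfrsf1b at 0.43 (limma adjusted p = 0.0369). Other genes without overlap came closer to 0 under the same removal. Nfkb2 was then at 0.20, Nfkbia at 0.07, Ikbkb at 0.06, Rel at -0.07, Tlr8 at -0.14 and Casp1 at -0.01, and Casp4 turned to 0.04.

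**Figure D4:**
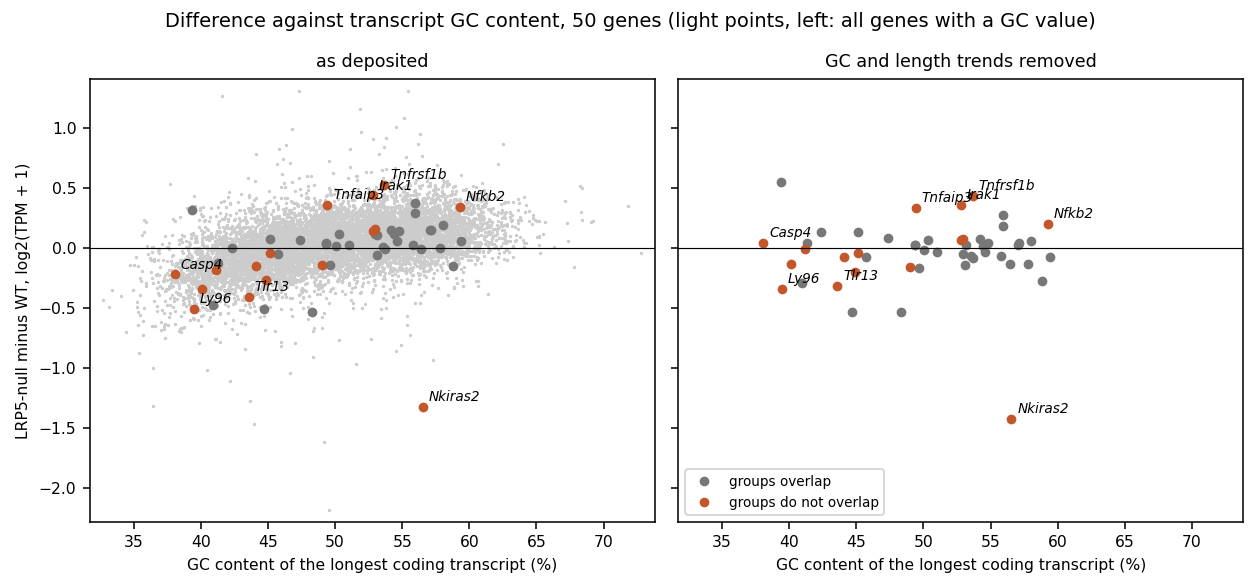
Difference LRP5-null minus WT in log2(TPM + 1) (vertical axis) against the GC content of the longest coding transcript in percent (horizontal axis), as deposited (left) and with GC and length trends removed (right). Large points are the 50 genes, orange where groups did not overlap, and small light points at the left are all genes with a GC value. At the left both rise with GC content, and Nkiras2 lies far below the other genes of the 50 in both panels.

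Other genes of the same pathways, were listed by role and not by how they moved. Of 87 such genes 73 were tested and 2 were called (2.74%, against 0.532% of all genes), Il1rap and Cxcl2. Il1rap, the accessory chain of the IL-1 receptor, stood at 29.7, 27.3 and 25.1 TPM under the WT label and at 18.3, 18.8 and 18.2 TPM under the LRP5-null label, lower in each of the latter (difference -0.54, limma adjusted p = 0.0466). Cxcl2, a neutrophil chemokine induced by NF-kappaB, stood at 348, 348 and 320 TPM against 248, 230 and 247 TPM (difference -0.48, limma adjusted p = 0.0371). Leaving out any library other than WT replicate 3 ended both calls (limma adjusted p up to 0.218 for Il1rap and 0.178 for Cxcl2 over all alternatives). Groups did not overlap in 23 of the 73, or 31.5% against 29.7% of all genes. Of these 11 were higher, or 15.1% against 17.4%, and 12 lower, or 16.4% against 12.3%, and the median difference was 0.02.

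By list, 0 of 18 ubiquitin and TNF receptor complex genes were called by limma, with 2 at an unadjusted p under 0.05 (11.1%, against 23.5% of all genes). Their smallest p belonged to the autophagy adaptor Tax1bp1 (difference -0.27), Traf5 (0.20) and the deubiquitinase Cyld (-0.20). Among 7 further kinases 0 were called and 0 had an unadjusted p under 0.05 in limma, and the smallest p were those of Map3k14 (NIK, 0.23), Ikbke (0.19) and Tbk1 (0.17). Of 8 genes of receptor trafficking and co-receptors 0 were called. In limma 1 had an unadjusted p under 0.05 (12.5%, against 23.5% of all genes). Hsp90b1, the chaperone gp96 on which Toll-like receptors depend for folding, gave 92.3, 79.4 and 77.5 TPM against 58.1, 63.4 and 66.1 TPM, without overlap (difference -0.40, limma adjusted p = 0.0907). Its co-chaperone gene Cnpy3 (0.23) and the receptor transporter gene Unc93b1 (0.17) differed in the other direction. Beside Il1rap, the IL-1 receptor and CARD adaptor list of 8 genes had its smallest p in Bcl3, an atypical IkappaB (0.38, limma adjusted p = 0.106), and the paracaspase gene Malt1 (-0.21).

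Of 13 further inflammasome genes 0 were called by limma and 3 had an unadjusted p under 0.05 (23.1%, against 23.5% of all genes). Groups did not overlap in 8 of the 13, or 61.5% against 29.7% of all genes, with 4 higher and 4 lower. Differences in this list ran from -0.76 to 0.24, and its share without overlap was not tested. The smallest p of the 13 were those of Naip2 (-0.25), Nlrp1b (0.24) and Nlrp12 (0.20). Of these, Naip2 and Nlrp1b have close copies between which the quantification could split reads. Among 19 NF-kappaB target genes 1 was called, Cxcl2, and 5 had an unadjusted p under 0.05 (26.3%, against 23.5% of all genes). Next to it stood Gadd45b (0.38, limma adjusted p = 0.0818) and Icam1 (0.39, limma adjusted p = 0.0904), which are on the opposite side to Cxcl2. The cytokine genes Il1b and Tnf, named after their values were seen, had differences of 0.02 each (limma adjusted p = 0.879 and 0.884).

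Markers of other cell types in the bone marrow were present at low levels, and their part in these differences was not tested. Monocyte and macrophage markers, 8 of 9 with a mean of at least 1 TPM, summed to 55.8 to 68.8 TPM under the WT label and 67.9 to 77.0 TPM under the LRP5-null label. Most of that sum was Csf1r (difference 0.16). The macrophage genes Adgre1 (0.36), C1qa (0.24), C1qb (0.44) and C1qc (0.33) were higher without overlap and not called (limma adjusted p from 0.0648 to 0.160). Csf1r, Ccr2 (-0.10), F13a1 (-0.02) and Ms4a6c (0.0034) overlapped between labels. Cx3cr1, under the filter, was lower without overlap, at 0.236, 0.307 and 0.346 TPM against 0.190, 0.207 and 0.198 TPM. Prg2, a granule protein gene of eosinophils, was called, at 0.850, 1.16 and 1.05 TPM against 2.91, 2.33 and 3.13 TPM (difference 0.91, limma adjusted p = 0.0341). From the same list Siglecf (0.03) and Mcpt8 (-0.05) overlapped between labels, and Epx and Cpa3 were under the filter. The sums of the eosinophil, basophil and mast cell list (9.68 to 12.2 against 12.8 to 14.1 TPM), the T and NK cell list (10.4 to 11.6 against 14.3 to 15.7 TPM, nearly all from Cd3d) and the megakaryocyte list (2.998 to 4.36 against 4.74 to 5.58 TPM) did not overlap. Those of the B and plasma cell list (15.4 to 20.4 against 19.1 to 19.97 TPM) and the erythroid list (48.0 to 56.9 against 42.1 to 53.9 TPM) overlapped, as did the sums for immature (48674 to 52430 against 49669 to 52075 TPM) and mature neutrophils (34857 to 38910 against 33818 to 35282 TPM). No marker was at 0 in all libraries. Tlr13, Tlr8, Ly96, Casp1 and Tnfrsf1b are also expressed by monocytes and macrophages. Under the LRP5-null label Tnfrsf1b was higher and Tlr13, Tlr8, Ly96 and Casp1 were lower, and the part of such cells in this was not tested.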

How the data were processed

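The data are 6 RNA libraries of neutrophils, 3 for each label. The authors aligned reads to mm9, name DESeq2, and deposited TPM. The tool that gave the TPM is not given in the sources used here. A read summary deposited by the authors holds counts of reads, shares in percent, a ratio for coverage bias at transcript ends and a coverage variation score. It lists paired-end reads and the labels name a Percoll gradient and an mRNA kit, whereas the methods name single-end reads, a stranded kit for total RNA and sorting on CD11b and Ly6G.

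Values were put on the scale log2(TPM + 1), and the genes whose mean reached 1 TPM were fitted by limma 3.58.1 (R 4.3.3) with a mean-variance trend, no covariate and Benjamini-Hochberg adjustment over 9775 genes. TPM holds no counts, so no count model was used and the depth behind single values is unknown. The 52 genes, the other lists and the alternatives were chosen with earlier results of these data known. Values per library are given for genes whose groups did not overlap, for the kappaB-Ras genes and for genes called when a library was left out, with Tlr4, Tlr7, Ikbkg, Tab2, Relb, Tlr9 and Nlrc4 added after their values were seen. Other pathway genes are named if called or among the 3 of smallest p in their list. GC content, length and coordinates are from GENCODE M1 (NCBIM37), with a GC value for 89.7% of genes tested. Alternatives were a pseudocount of 0.1, filters (none, 5 TPM), 3 scalings (median ratio, quantile, TPM rescaled without mitochondrial and the 20 most abundant genes), limma without trend or robust, each library left out, WT replicate 3 as the only library of its label, the ribosomal share as covariate, GC and length trends removed, and the replicate number as a block.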

Additional observations from a re-analysis of the deposited data

How the results depend on the processing

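The number of genes called depended on single libraries. Over all genes it was 52 and ranged from 2 to 1920 when each library was left out, with 18, 3 and 1920 without WT replicates 1, 2 and 3 and 2, 15 and 2 without LRP5-null replicates 1, 2 and 3. Among the 50 genes tested it was 1 and ranged from 0 to 11. Without a filter 3 genes (3 higher) and 0 of the 50 were called, and a filter at 5 TPM gave 29 genes (10 higher). Median-ratio and quantile scaling and rescaled TPM called 2 of the 50, Nkiras2 and Tlr13. Rescaled TPM gave 96 of all genes (69 higher). For median-ratio and quantile scaling the count of all genes called is not given here. The median over all genes, 0.04, became 0.0032 with median-ratio scaling, 0.0022 with quantile scaling and 0.069 with rescaled TPM. WT replicate 3 as the only library labelled WT, a fit in which the spread comes from the LRP5-null label alone and the lone library is assumed to vary likewise, gave 6 genes (1 higher) and 0 of the 50, and the ribosomal share as covariate 6 (1 higher) and 0. Removal of GC and length trends gave 431 (166 higher) and 4. The median over the 50 genes, 0.02, was -0.063 against WT replicate 3 alone (all genes -0.0065), -0.043 with the covariate (all genes 0.0059), and -0.0019 to 0.060 with a library left out. Fits without a library also have fewer samples, and other causes were not tested.

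Nkiras2 also lost its call without a filter (limma adjusted p = 0.0997) and missed the threshold against WT replicate 3 alone (difference -1.22, limma adjusted p = 0.0998), a fit too small to bear on stability. Nkiras1 changed direction with rescaled TPM (0.0135), with trends removed (0.128) and with a library left out (-0.0935 to 0.156; 0.00032, 0.0377 and 0.156 without WT replicate 2, WT replicate 3 and LRP5-null replicate 3). Nod1 (-0.0287) and Unc93b1 (-0.0355) did so against WT replicate 3 alone, and Casp4 (0.0431) with trends removed. Apart from the 16 genes without overlap, Nkiras1, Nod1 and Tnfrsf1a, 31 genes were tested, among them Tlr4, Tlr7, Ikbkg, Tab2 and Relb. Of these 31, 19 turned direction under at least 1 of 18 alternatives and 0 were called by limma under any.

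Same-numbered libraries deviated with correlations of 0.229, -0.0075 and 0.131. WT replicates 1 and 3 correlated best with their own number and WT replicate 2 did not. With 3 libraries of each label these correlations cannot decide whether the replicate numbers pair the libraries. With the number as a block 4 of all genes (2 higher, 3 shared with the 52) and 0 of the 50 were called by limma, and Nkiras2 had an adjusted p of 0.0966.

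Depth per gene is unknown, directions rest on the labels, and p-values measure the spread of 3 libraries of each label.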
